A study of Mus musculus with 7 samples.

Results

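Messenger RNA of 37 genes of the cell cycle was followed in epididymal white fat of mice that overexpress the transcription factor XBP1. The set holds 16 genes of S phase, when DNA is copied, and 21 genes of mitosis, when the copied chromosomes are separated. The genes were chosen by name, and each was read from the row of the array table that the platform annotation pairs with that gene symbol and no other, taking the row with the highest mean where a gene had several. By this rule 36 of the 37 genes were measured, of 19938 genes in all. Ccnb1, which encodes cyclin B1, was the gene without such a row, so the set holds 16 measured S phase genes and 20 measured mitosis genes.

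Fat was taken from 4 wild type and 3 aP2-XBP1 transgenic samples. All were male C57Bl/6J mice, 17 weeks old and fed chow. The transgene is driven by the aP2 promoter, which belongs to the adipocyte gene Fabp4 and is known to act in macrophages as well. Expression was read on Affymetrix Mouse Gene 1.0 ST arrays, 1 per sample. Values are log2 expression, on which a difference of 1 is a doubling. Libraries are called wild type 1 to 4 and transgenic 1 to 3 after the replicate numbers in the labels, which do not tell whether replicates were different animals. The p-values therefore cover the spread among these libraries, some of which may be technical.

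A cell that divides first loads the Mcm2 to Mcm7 helicase onto its replication origins, then copies its DNA with polymerases that ride on the Pcna clamp, and meanwhile raises its supply of deoxynucleotides. It then makes cyclins A and B, which switch on the kinase Cdk1, builds a spindle, attaches the chromosomes to it under the watch of a checkpoint, and divides. Transcripts of these genes are scarce in resting cells, and mature adipocytes do not divide. In a fat pad the dividing cells include macrophages, endothelial cells and adipocyte precursors. In bulk tissue fewer cells of a type and less RNA per cell cannot be told apart.

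Several libraries stood apart before any cell cycle gene was read. Serpina1f, a gene of the epididymal epithelium, read 10.70, 2.74, 10.84 and 11.50 in wild type 1 to 4 and 2.90, 3.73 and 2.83 in transgenic 1 to 3. Wild type 1, 3 and 4 were thus high and wild type 2 was low like the transgenic libraries. Wild type 4 alone had late spermatid transcripts, with a mean log2 level of 7.53 over the 7 markers, against 3.07 to 3.41 in the other 6 libraries. Results are therefore also given with wild type 2 as the only control. They are given without wild type 1 as well, since it was the highest library for most genes of the set. Array medians over all rows were 4.03 to 4.04 in wild type and 3.99 to 4.01 in transgenic libraries, an offset of -0.041 that goes with genotype, and array correlations ran from 0.973 to 0.996. Precision is limited by how few arrays there are.

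The promoters of the set carry different short sequences in its S phase and mitosis genes. The 3 motifs were searched on both strands in windows of 300 bases, from 250 before to 50 after the transcription start, in the RefSeq promoters of GRCm38.p6. The CHR, the element of mitosis genes that the MuvB complex binds, was searched as TTTGAA or TTCGAA. The CCAAT box, bound by NF-Y, was searched as CCAAT. The E2F site was searched as TTTCCCGC, TTTCGCGC, TTTGCCGC or TTTGGCGC. A gene with several promoters counted once if any of them held the motif, and a match is a description of letters, not a binding site. The table held 30 of the 37 genes, 13 of S phase and 17 of mitosis, and Mcm4, Gins1, Pole, Ccna2, Aurkb, Kif20a and Tpx2 were not matched.

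The CHR was present in 13 of the 17 mitosis genes (76.5%) and 3 of the 13 S phase genes (23.1%), beside 21.7% of the 27025 genes of the table. The mitosis genes without a CHR match were Cenpe, Birc5, Nusap1 and Ccnb1. The E2F site was present in 7 of the 13 S phase genes (53.8%) and 1 of the 17 mitosis genes (5.88%), beside 2.6% of all genes. The CCAAT box was present in 15 of 17 (88.2%) and 9 of 13 (69.2%), beside 41.1% of all genes. Among the 17492 protein-coding genes of the table the shares were 20.2% for the CHR, 3.29% for the E2F site and 42.3% for the CCAAT box. A separate list of 40 other mitosis genes had the CHR in 26 of the 34 matched (76.5%) and the E2F site in 3 (8.82%). A list of 40 other replication genes had the CHR in 7 of 34 (20.6%) and the E2F site in 11 (32.4%).

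The promoters of 4 mitosis genes whose values are given by library are shown first, since they hold CHR and CCAAT matches close together. Each run is the RefSeq sequence of GRCm38.p6 from 150 bases before to 30 bases after the start, 5′ to 3′ on the strand of the gene, and capitals mark the CHR and the CCAAT box on either strand.
Top2a, chr11:99024160-99024339 (- strand): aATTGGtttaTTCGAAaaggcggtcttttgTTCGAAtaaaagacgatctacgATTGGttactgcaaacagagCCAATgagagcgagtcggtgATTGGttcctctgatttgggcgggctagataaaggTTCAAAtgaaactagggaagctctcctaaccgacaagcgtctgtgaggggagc
Mki67, chr7:135716350-135716529 (- strand): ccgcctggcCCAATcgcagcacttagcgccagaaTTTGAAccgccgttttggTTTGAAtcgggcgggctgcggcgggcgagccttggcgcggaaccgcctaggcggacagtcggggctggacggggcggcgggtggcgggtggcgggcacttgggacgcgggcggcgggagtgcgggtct
Ccnb2, chr9:70421525-70421704 (- strand): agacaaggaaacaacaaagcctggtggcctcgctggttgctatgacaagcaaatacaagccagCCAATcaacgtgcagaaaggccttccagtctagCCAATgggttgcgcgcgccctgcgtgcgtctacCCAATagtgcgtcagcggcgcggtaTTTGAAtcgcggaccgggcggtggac
Bub1, chr2:127831830-127832009 (- strand): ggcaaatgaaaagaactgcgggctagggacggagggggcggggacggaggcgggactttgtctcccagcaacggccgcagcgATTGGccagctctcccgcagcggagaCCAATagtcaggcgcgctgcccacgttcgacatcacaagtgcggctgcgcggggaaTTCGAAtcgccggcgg

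The promoters of 3 helicase genes and of Pold2 are shown as examples of S phase genes. Capitals mark CCAAT boxes as before and E2F sites on either strand, and in Mcm6 overlapping E2F matches run together. For Pold2 the first of 2 promoters is given. E2F letters were present or missing in genes of either direction: Mcm2, Pcna, Rrm1, Rrm2 and Tyms, all with a lower transgenic mean, had 0 matches, as did Pold2, and Pold1, with a slightly higher one, had 1.
Mcm6, chr1:128359676-128359855 (- strand): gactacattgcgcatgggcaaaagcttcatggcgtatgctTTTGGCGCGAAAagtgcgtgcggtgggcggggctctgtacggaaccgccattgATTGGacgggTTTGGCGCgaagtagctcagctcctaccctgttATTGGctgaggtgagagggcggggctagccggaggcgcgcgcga
Mcm3, chr1:20820283-20820462 (- strand): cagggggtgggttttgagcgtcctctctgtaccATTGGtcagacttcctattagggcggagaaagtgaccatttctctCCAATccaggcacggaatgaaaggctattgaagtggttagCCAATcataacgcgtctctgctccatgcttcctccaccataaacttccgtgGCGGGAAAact
Mcm5, chr8:75109359-75109538 (+ strand): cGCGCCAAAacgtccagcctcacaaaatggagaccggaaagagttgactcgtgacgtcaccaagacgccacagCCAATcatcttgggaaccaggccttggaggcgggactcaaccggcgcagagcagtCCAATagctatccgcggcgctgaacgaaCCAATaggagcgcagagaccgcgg
Pold2, chr11:5878227-5878406 (- strand): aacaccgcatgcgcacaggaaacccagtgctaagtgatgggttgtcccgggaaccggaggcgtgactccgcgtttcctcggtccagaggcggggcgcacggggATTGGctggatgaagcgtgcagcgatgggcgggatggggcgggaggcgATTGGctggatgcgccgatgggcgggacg

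Across the 36 genes the mean was lower in transgenic than in wild type fat for 32 and higher for 4, beside 46.4% of all 21789 probe sets tested lower and 53.6% higher. The median difference, transgenic minus wild type, was -0.34, against 0.0090 over all probe sets. With every array given the same median, 31 of 36 were lower, beside 32.9% of all probe sets, and the median differences were -0.30 for the set and 0.050 for all probe sets. With limma, 0 of the 36 genes reached an adjusted p of 0.05 in either direction, as did 0.0% of all probe sets, and their adjusted p-values ran from 0.622 to 0.943. At an unadjusted limma p under 0.05, 1 gene was higher (Pold2; background 4.82%) and 3 were lower (Gins1, Bub1 and Cenpe; background 3.12%). Gins1, Bub1 and Cenpe were dim, with mean levels at percentiles 26.7 to 30.3 of all probe sets tested. The transgenic libraries lay above all wild type libraries for 1 gene, Pold2 (background 3.38%), and below them for 2, Mcm4 and Cenpe (background 2.44%).

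The lower transgenic means went with high values in 2 of the 4 wild type libraries. Wild type 1 was the highest of the 7 libraries for 32 of the 36 genes, beside 19.7% of all probe sets. The exceptions were Gins1 and Bub1, highest in wild type 3, Pole, highest in transgenic 3, and Pold2, highest in transgenic 2. Wild type 1 and 3 were the 2 highest libraries for 26 of 36, beside 9.75% of all probe sets. The spread among wild type libraries exceeded that among transgenic libraries for 34 of 36 genes, all but Gins1 and Cdc20, beside 65.3% of all probe sets. Relative to each gene's own mean, the median over the 36 genes was 0.69, -0.18, 0.27 and -0.17 in wild type 1 to 4 and -0.18, -0.24 and -0.072 in transgenic 1 to 3. Wild type 2 and 4 thus sat among the transgenic libraries.

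**Figure D1:**
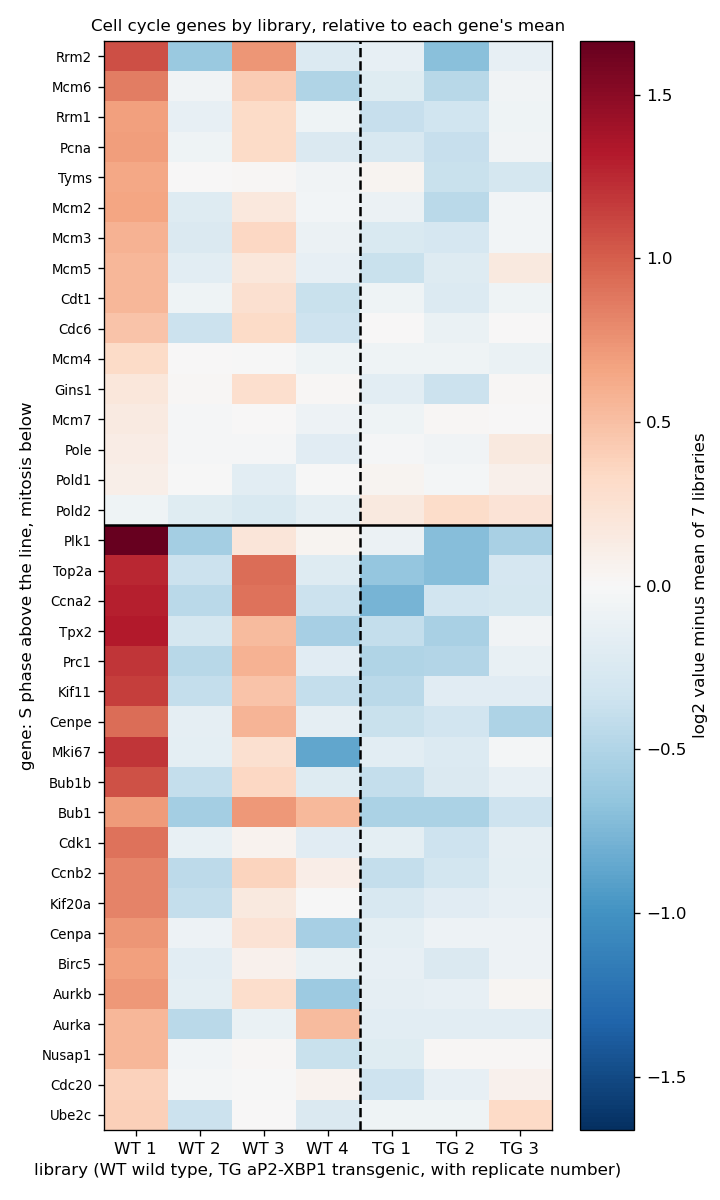
Each row is a gene, with S phase genes above the line and mitosis genes below it, and each column is a library. Colour gives the log2 value minus the gene's mean over the 7 libraries. Wild type 1 is the highest library in 32 of the 36 rows, and wild type 2 and 4 are mostly as pale or blue as the transgenic libraries.

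Among genes that load and form the replicative helicase, 9 of 9 had a lower transgenic mean, with a median difference of -0.25 and 0 called. Mcm2, a helicase subunit (probe set 10546163), read 5.90, 5.02, 5.41 and 5.20 in wild type 1 to 4 and 5.14, 4.79 and 5.20 in transgenic 1 to 3. Wild type 1 was the highest and wild type 2 lay within the transgenic range, so the groups overlapped. The difference was -0.34 (SE 0.22).

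Mcm4 (10437945), another subunit, read 5.35, 5.04, 5.03 and 4.96 in wild type 1 to 4 and 4.96, 4.96 and 4.92 in transgenic 1 to 3. All transgenic libraries lay below all wild type libraries, but by a margin that is lost at 2 decimals between wild type 4 and transgenic 2. The difference was -0.15 (SE 0.10), and the exact two-sided permutation test over the 35 ways to choose 3 of 7 libraries gave p = 0.0857. Mcm3, Mcm5 and Mcm6 differed by -0.33 (SE 0.21), -0.25 (SE 0.21) and -0.42 (SE 0.32). Mcm6 had the widest range of the subunits, from 5.38 in wild type 4 to 6.73 in wild type 1.

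Mcm7 varied far less than its partners in the same hexamer. Its values ran from 5.49 to 5.71, a range of 0.23 against 0.43 to 1.35 for the other 5 subunits, and its difference was -0.032 (SE 0.064), which turned to 0.0088 once every array was given the same median. Wild type 1 was still the highest library for each of the 6 subunits.

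Gins1 (10476989), part of the GINS complex that activates the helicase, read 3.40, 3.22, 3.49 and 3.22 in wild type 1 to 4 and 3.03, 2.85 and 3.22 in transgenic 1 to 3. Transgenic 3 matched wild type 2 and 4, while the other transgenic libraries were lower than any wild type library. The difference was -0.30 (SE 0.11, limma adjusted p = 0.622), with an exact two-sided permutation p = 0.0857, and it was -0.28 without wild type 1. Cdc6 and Cdt1, which load the helicase, differed by -0.055 (SE 0.23) and -0.22 (SE 0.21). Cdc6 was 4.15 and 4.00 in wild type 1 and 3 but 3.33 in both wild type 2 and 4, below the transgenic range of 3.57 to 3.69.

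The 3 genes of deoxynucleotide supply had a median difference of -0.46. Rrm1 (10555695), the large subunit of ribonucleotide reductase, read 7.59, 6.77, 7.22 and 6.83 in wild type 1 to 4 and 6.52, 6.57 and 6.83 in transgenic 1 to 3. Wild type 1 and 3 stood above the other 5 libraries, and wild type 2 and 4 were no higher than transgenic 3. The difference was -0.46 (SE 0.21, limma adjusted p = 0.637).

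Rrm2, the subunit of the same enzyme that rises in S phase, ran from 4.16 in wild type 2 to 5.84 in wild type 1, while transgenic libraries lay at 4.07 to 4.63. Its difference of -0.57 (SE 0.44) became 0.29 with wild type 2 as the only control. Tyms, thymidylate synthase, read 4.07 in wild type 1 and 3.36 to 3.44 in the other wild type libraries, beside 3.06 to 3.47 in transgenic fat. Here wild type 3 was not raised.

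Among the clamp and the polymerases the genes parted. Pcna (10487930), the sliding clamp, read 8.44, 7.67, 8.07 and 7.51 in wild type 1 to 4 and 7.47, 7.37 and 7.68 in transgenic 1 to 3. Wild type 1 and 3 were again high, and wild type 2 and 4 lay within the transgenic range. The difference was -0.41 (SE 0.23).

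Pold2 (10384032), the small subunit of polymerase delta, went the other way. It read 5.76, 5.62, 5.57 and 5.66 in wild type 1 to 4 and 5.99, 6.13 and 6.05 in transgenic 1 to 3. All 3 transgenic libraries lay above all 4 wild type libraries, and wild type 2 was not set apart from the other wild type libraries. Wild type averaged 5.65 ± 0.08 (SD, n = 4) and transgenic 6.05 ± 0.07 (SD, n = 3), which differ by 0.40 (SE 0.06, 95% interval 0.26 to 0.55) or 1.32-fold. An exact two-sided permutation p of 0.0286 was reached, the smallest possible here, and limma's adjusted p over all probe sets was 0.622, so the gene did not pass. The difference was 0.44 without wild type 1 and 0.44 with wild type 2 as the only control.

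For the catalytic subunits of the replicative polymerases the intervals included 0. Pold1, the catalytic subunit that pairs with Pold2, differed by 0.053 (SE 0.072, 95% interval -0.12 to 0.23). Pole, the catalytic subunit of polymerase epsilon, differed by 0.053 (SE 0.090, 95% interval -0.16 to 0.27). Their ranges over the 7 libraries, 0.28 and 0.35, were narrow beside the 1.08 of Pcna.

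**Figure D2:**
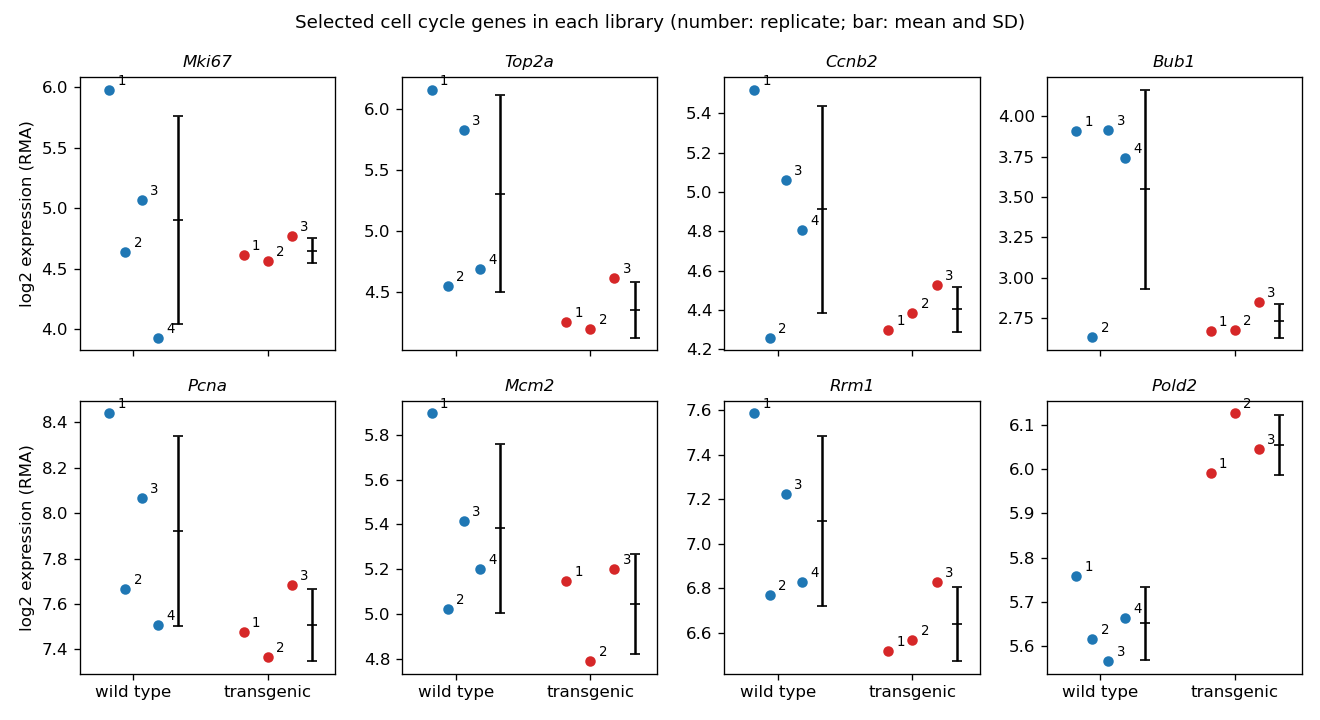
Log2 expression of 8 genes in each library is shown, wild type in blue and transgenic in red, with the replicate number beside each point and a bar for the mean and SD (n = 4 and n = 3); each panel has its own axis. In every panel but Pold2 wild type 1 and 3 are the 2 highest points. In Bub1 wild type 4 lies close below them, and in Pold2 the 3 transgenic points lie above the 4 wild type points.

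The mitosis genes varied more than the S phase genes. Their median SD among wild type libraries was 0.56, against 0.36 for the S phase genes and 0.12 over all probe sets, whereas among transgenic libraries the corresponding values were 0.12, 0.14 and 0.085. The transgenic mean was lower for 19 of 20 with a median difference of -0.42, and for 13 of 16 S phase genes with a median of -0.27. Wild type 1 exceeded the transgenic mean by 0.34 to 2.11 (median 1.15) for mitosis genes. The difference between S phase and mitosis genes is described and was not tested.

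The 2 chromosome structure genes had the lowest median difference of the groups by function, -0.60, but were unlike each other. Top2a (10390707), the topoisomerase that untangles replicated DNA, read 6.16, 4.55, 5.83 and 4.69 in wild type 1 to 4 and 4.26, 4.20 and 4.62 in transgenic 1 to 3. Wild type 1 and 3 lay more than 1 unit above the other 5 libraries, and wild type 2 lay below transgenic 3. The difference was -0.95 (SE 0.43, limma adjusted p = 0.636), 1.93-fold higher in wild type, with an exact two-sided permutation p = 0.143. It was -0.50 when averaged with a dim second row of the gene.

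Mki67 (10568714), which encodes the proliferation marker Ki-67, read 5.98, 4.63, 5.07 and 3.93 in wild type 1 to 4 and 4.62, 4.57 and 4.77 in transgenic 1 to 3. The highest and the lowest library were both wild type, and the transgenic libraries lay between them. Wild type averaged 4.90 ± 0.86 (SD, n = 4) and transgenic 4.65 ± 0.10 (SD, n = 3), which differ by -0.25 (SE 0.45, 95% interval -1.34 to 0.83) that became 0.11 without wild type 1.

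Cyclins and their kinase had lower transgenic means in 3 of 3 measured genes, with a median of -0.51. Ccnb2 (10594774), cyclin B2, read 5.52, 4.26, 5.06 and 4.81 in wild type 1 to 4 and 4.30, 4.38 and 4.53 in transgenic 1 to 3. Wild type 1, 3 and 4 lay above the transgenic range and wild type 2 below it. The difference was -0.51 (SE 0.28), and 0.14 with wild type 2 as the only control. Ccna2, cyclin A2, reached 5.79 and 5.40 in wild type 1 and 3 and stayed between 3.73 and 4.20 in the other 5 libraries. Cdk1 reached 5.49 in wild type 1 and lay between 4.24 and 4.63 elsewhere, with a difference of -0.38 (SE 0.27).

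Mitotic kinases and survivin had a median difference of -0.29, with 4 of 4 lower. Plk1, polo-like kinase 1, had the widest range of the 36 genes, 2.36, from 3.89 in transgenic 2 to 6.26 in wild type 1, and a difference of -0.78 (SE 0.51) that was -0.34 without wild type 1. Aurka, the spindle pole kinase, was 5.05 in wild type 1 and 5.02 in wild type 4 but 4.38 in wild type 3, 4.05 in wild type 2 and 4.31 to 4.32 in transgenic fat. Aurkb, the kinase of the chromosomal passenger complex, had its lowest value, 3.66, in wild type 4. Birc5, survivin of the same complex, differed by -0.27 (SE 0.21).

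Of the spindle checkpoint and the anaphase-promoting complex, Bub1 (10487480), a checkpoint kinase, read 3.91, 2.63, 3.92 and 3.74 in wild type 1 to 4 and 2.67, 2.67 and 2.85 in transgenic 1 to 3. Wild type 1, 3 and 4 lay about 1 unit above the transgenic libraries, and wild type 2 lay below them. These are the libraries in which Serpina1f was high. The difference was -0.82 (SE 0.33, limma adjusted p = 0.627), with an exact two-sided permutation p = 0.143. Without wild type 2 it was -1.12 with a limma adjusted p = 0.0207, the lowest over all alternatives of any gene of the set, and with wild type 2 as the only control it was 0.10.

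Bub1b, the checkpoint protein BubR1, differed by -0.46 (SE 0.35) and, unlike Bub1, was 4.04 in wild type 4, within the transgenic range of 3.87 to 4.12. Cdc20, the activator of the anaphase-promoting complex, differed by -0.24 (SE 0.14). Ube2c, the ubiquitin-conjugating enzyme of that complex, was the mitosis gene with a higher transgenic mean, by 0.11 (SE 0.20), and turned to -0.029 without transgenic 3.

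Centromere, spindle and cytokinesis genes were lower in transgenic fat in 7 of 7, with a median of -0.49. Cenpe (10496204), the kinetochore motor, read 3.95, 2.87, 3.59 and 2.87 in wild type 1 to 4 and 2.65, 2.71 and 2.50 in transgenic 1 to 3. All transgenic libraries lay below all wild type libraries, and wild type 2 and 4 were nearer to the transgenic libraries than to wild type 1. The difference was -0.70 (SE 0.29, limma adjusted p = 0.627), with an exact two-sided permutation p = 0.0857, and it was -0.25 with wild type 2 as the only control.

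The midzone protein Prc1 and the spindle proteins Tpx2 and Kif11 differed by -0.66 (SE 0.40), -0.58 (SE 0.46) and -0.49 (SE 0.40). Each was highest in wild type 1 and next in wild type 3. Kif20a, a cytokinesis motor, differed by -0.34 (SE 0.27), Cenpa, the centromeric histone, by -0.20 (SE 0.29), and Nusap1, a spindle microtubule protein, by -0.092 (SE 0.21). Cenpa and Nusap1, like Mki67, Tpx2 and Aurkb, had their lowest value in wild type 4.

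**Figure D3:**
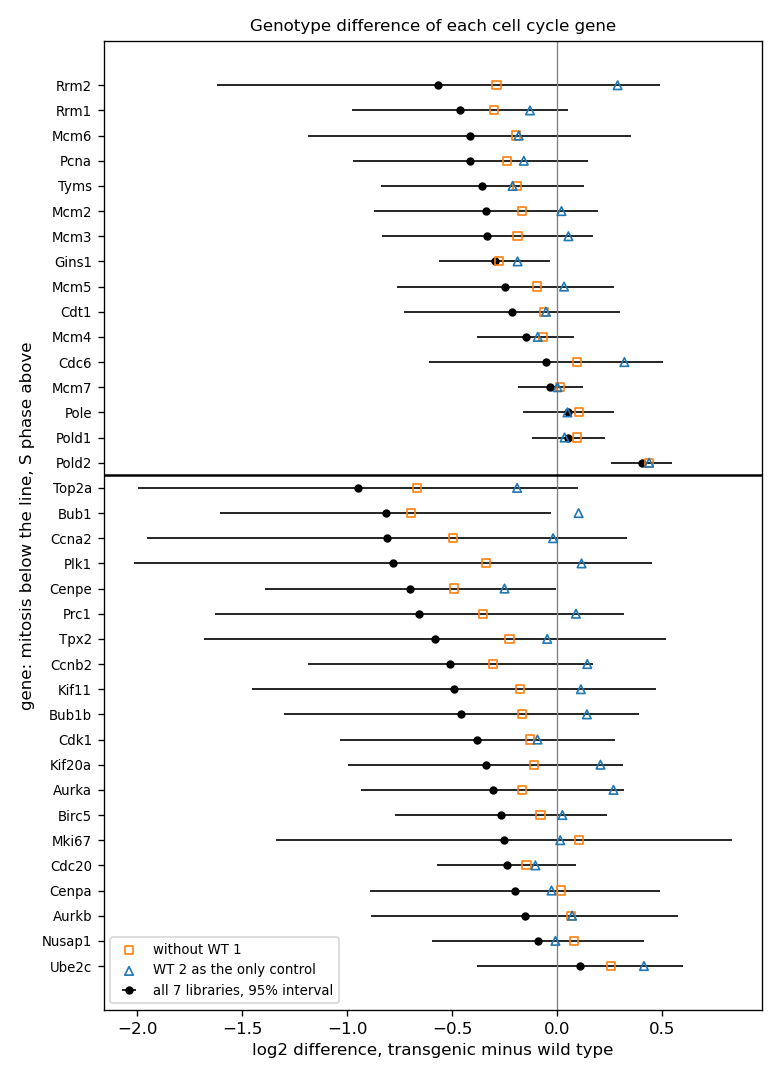
Filled points give each gene's log2 difference, transgenic minus wild type, over all 7 libraries with its 95% limma interval; open squares leave out wild type 1 and open triangles use wild type 2 as the only control. Most filled points lie left of 0, most squares lie closer to 0 and the triangles scatter around it, while the 3 marks of Pold2 stay between 0.40 and 0.44.

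Leaving out wild type 1 moved the median difference from -0.27 to -0.13 for S phase genes and from -0.42 to -0.17 for mitosis genes. It turned the sign of 6 genes and shrank the difference of 22 others by more than 1.5 times, Tpx2 from -0.58 to -0.23, Kif11 from -0.49 to -0.18 and Cdk1 from -0.38 to -0.13 among them. Since wild type 1 was left out for being highest, its absence moves these differences toward 0 by construction. Of the 36 genes 26 then had a lower transgenic mean, beside 45.1% of all probe sets. With wild type 2 as the only control the medians were 0.011 and 0.048, and 15 of 36 genes had a lower transgenic mean, again beside 45.1% of all probe sets. The direction of both medians therefore depended on whether wild type 2, a single array, served as the only control. Both medians stayed negative whenever a single library was left out. For mitosis genes wild type 2 was itself the lowest library. Its median relative to each gene's mean was -0.35, against -0.30 to -0.14 in the transgenic libraries. Leaving out wild type 4 gave medians of -0.35 and -0.56, both more negative than with that library included.

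Other genes of the pathway were read from lists chosen by name. Over all probe sets 46.4% were lower and 53.6% higher, 3.12% lower and 4.82% higher at an unadjusted p under 0.05, and wild type 1 was highest in 19.7%, and the counts of each list stand beside these shares. Of 40 other mitosis genes 38 had a lower transgenic mean, with a median of -0.28 and 0 called by limma (1 lower and 0 higher at an unadjusted p under 0.05). Wild type 1 was the highest library for 35 of them, and wild type 1 and 3 were the 2 highest for 30. Smc4, a condensin subunit, had the smallest p of this list. It read 6.52, 6.28, 6.46 and 6.30 in wild type 1 to 4 and 6.00, 6.09 and 6.07 in transgenic 1 to 3, so the transgenic libraries lay below the wild type libraries, with a difference of -0.33 (SE 0.07) and a limma adjusted p = 0.622. Cdc25c, the phosphatase that activates Cdk1, was next with -0.18 (SE 0.08) and overlapping groups.

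Of 39 measured other replication genes the transgenic mean was lower for 27 and higher for 12, with a median of -0.041, as large as the array offset, and 0 called by limma (2 higher and 1 lower at an unadjusted p under 0.05). Wild type 1 was the highest library for 18. At a common array median 20 were lower and the median was -0.0007, beside 32.9% lower and a median of 0.050 over all probe sets. In both settings the list median lay below that of all probe sets, which was 0.0090 before the shift. Prim1, the catalytic subunit of primase, had the smallest p. It read 4.87, 4.40, 4.78 and 4.71 in wild type 1 to 4 and 3.87, 4.19 and 4.06 in transgenic 1 to 3. All transgenic libraries lay below all wild type libraries, wild type 2 included, with a difference of -0.65 (SE 0.13) and a limma adjusted p = 0.622. Gins4, a partner of Gins1 in the GINS complex, was higher by 0.28 (SE 0.07) with groups that did not overlap.

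The 5 accessory polymerase subunits of this list, singled out after their values were seen, were mostly near 0. Pold4, Pole2 and Pole3 differed by 0.035 (SE 0.058), -0.016 (SE 0.12) and -0.017 (SE 0.036), with overlapping groups. Pole4, of polymerase epsilon, was higher by 0.52 (SE 0.15) with no overlap. Pold3, of polymerase delta, differed by -0.24 (SE 0.10), with transgenic 2 at 5.84 just under the lowest wild type library. None of the 5 passed the adjusted test with limma.

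Regulators of entry into the cycle were split in direction, as all probe sets were (53.6% higher and 46.4% lower). Of 27 G1 cyclins, kinases and E2F-RB regulators the transgenic mean was higher for 16 and lower for 11, with a median of 0.050, 0 called by limma (2 higher and 1 lower at an unadjusted p under 0.05) and wild type 1 highest for 9. Ccnd2, cyclin D2, read 9.68, 9.93, 9.72 and 9.58 in wild type 1 to 4 and 9.98, 10.25 and 10.48 in transgenic 1 to 3, above wild type throughout, with a difference of 0.51 (SE 0.13). Its relative Ccnd1, cyclin D1, had the largest difference of the list and the other direction, and is named after its values were seen. It read 8.64, 7.67, 8.34 and 8.37 in wild type 1 to 4 and 7.90, 7.62 and 7.23 in transgenic 1 to 3, with a difference of -0.67 (SE 0.26) and overlapping groups. Cdk4, a partner kinase of the D cyclins, differed by -0.31 (SE 0.15). Lin52, a MuvB subunit, was higher by 0.48 (SE 0.13) without overlap. The transcription factors E2f1, Foxm1 and Mybl2, named after their values were seen, differed by 0.09 (SE 0.18), -0.07 (SE 0.16) and 0.14 (SE 0.15).

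Of 7 measured CDK inhibitors and p53 pathway genes the transgenic mean was higher for 5 and lower for 2, with a median of 0.074 and 0 called by limma (1 higher and 0 lower at an unadjusted p under 0.05). Cdkn2c (10515090), which encodes the Cdk4 and Cdk6 inhibitor p18, read 7.95, 8.74, 7.74 and 8.19 in wild type 1 to 4 and 9.04, 9.36 and 9.83 in transgenic 1 to 3. The groups did not overlap, and wild type 2 was the closest wild type library. The difference was 1.26 (SE 0.28), 2.39-fold, with a limma adjusted p = 0.622. Cdkn2d, p19, was higher by 0.15 (SE 0.11) with overlapping groups.

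Markers of several cell types moved with parts of this pattern. The 7 measured macrophage markers had a mean level of 9.05, 8.33, 9.09 and 7.60 in wild type 1 to 4 and 8.01, 8.08 and 8.30 in transgenic 1 to 3, so they were high in the same wild type 1 and 3. Adgre1, which encodes F4/80, read 8.75, 7.41, 9.09 and 6.32 in wild type and 7.06 to 7.54 in transgenic fat. Wild type 1 and 3 were the 2 highest libraries for 6 of the 7. The 8 adipocyte markers had their lowest mean level, 10.02, in wild type 1 and the next lowest, 10.25, in wild type 3, beside 10.38 to 10.73 in wild type 4 and 2 and 10.71 to 10.89 in transgenic fat. The part of macrophage or adipocyte content in the cell cycle values was not tested.

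The 7 smooth muscle markers were at 9.46, 7.23, 9.46 and 10.02 in wild type 1 to 4 and 6.73 to 7.30 in transgenic fat. The 7 measured epididymal tract markers were at 5.58, 2.57, 5.56 and 5.98 and at 2.67 to 3.26, carried by Serpina1f, Spink8 and Defb42, and their median difference (0.013) differed in sign from that of the mean level. Both lists were as high in wild type 4 as in wild type 1 and 3, unlike most cell cycle genes. The 8 meiotic germ cell markers were at 3.59 in wild type 4 and 2.38 to 2.80 elsewhere, the library in which Aurka was as high as in wild type 1. Whether tract or germ cells add to Bub1 or Aurka was not tested.

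Endothelial markers (6) had mean levels of 7.75 to 8.17 in wild type and 8.08 to 8.33 in transgenic fat, lowest in wild type 1. Progenitor and fibroblast markers (7 measured) were at 8.89 to 9.41 and 9.08 to 9.20, with a median difference of 0.021 of the opposite sign to the mean. The genes of this list differed among themselves: the collagen genes Col1a1 and Col3a1 were highest in wild type 1 and next in wild type 3, Dpp4, Cd34 and Dcn were highest in wild type 2 and lowest in wild type 1, Pdgfra was highest in wild type 2 and Pi16 in transgenic 2. T and B cell markers (7 measured) were at 3.32 to 3.77 in wild type, a range that held the transgenic libraries. These genes also differed among themselves. Wild type 1 and 3 were the 2 highest libraries for 3 of the 7, the T cell genes Cd3e, Cd3g and Cd8a. Cd4 was highest in wild type 3, and the B cell genes Cd79a, Cd79b and Ms4a1 in transgenic 1. By mean level none of these 3 lists had wild type 1 and 3 as its 2 highest libraries.

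**Figure D4:**
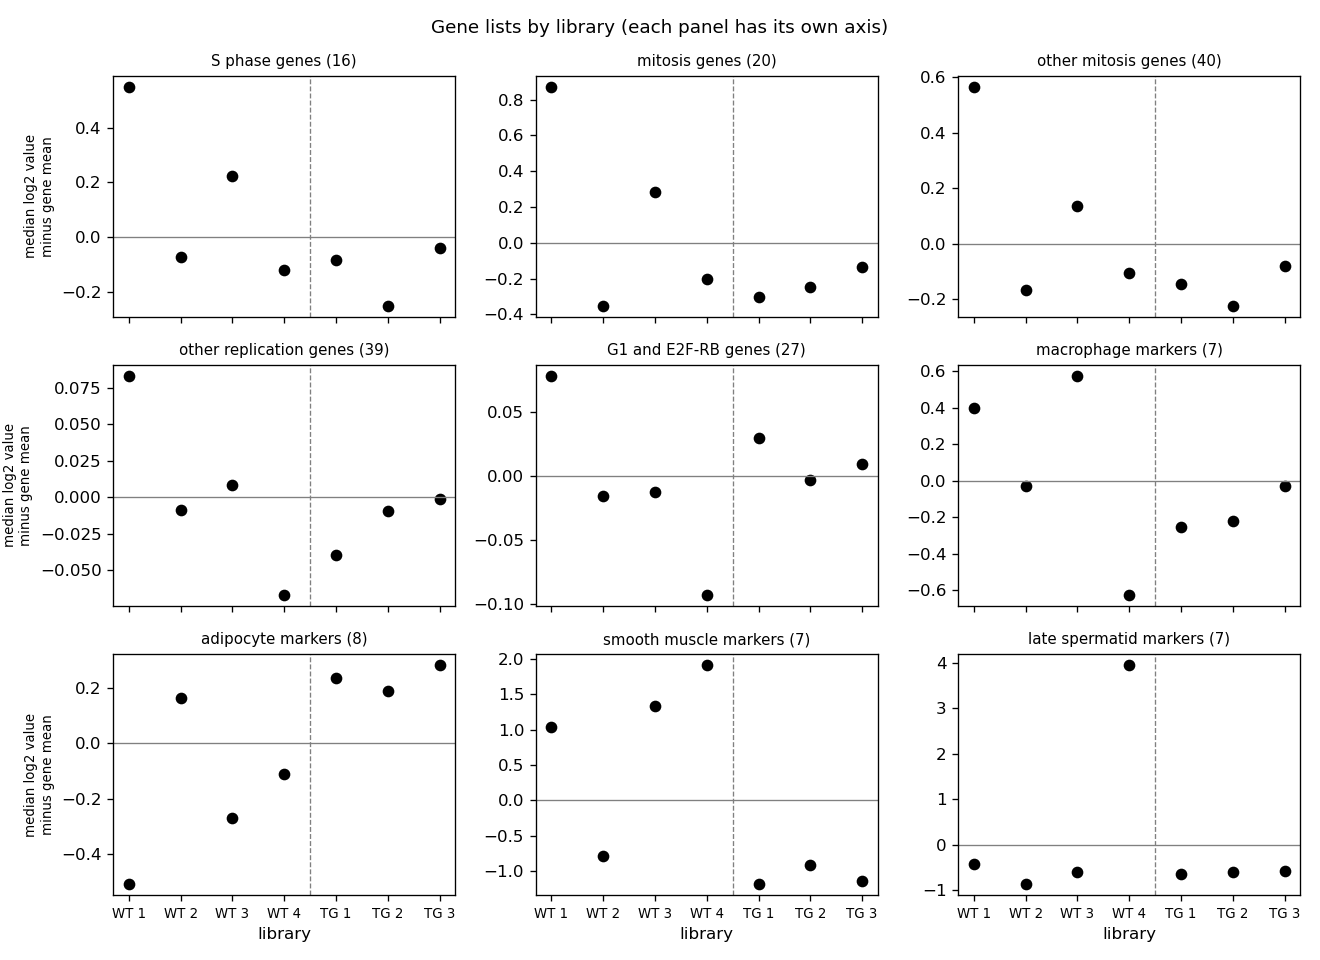
For 9 gene lists, points give the median over the genes of the log2 value minus each gene's mean, in each of the 7 libraries; each panel has its own axis, and the number of genes is in its title. The S phase, mitosis and other mitosis lists are high in wild type 1 and then wild type 3, the macrophage markers in wild type 3 and then wild type 1, the smooth muscle markers in wild type 1, 3 and 4, and the late spermatid markers in wild type 4.

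Xbp1 itself separated the genotypes where most cell cycle genes did not. It read 8.90, 9.07, 8.94 and 9.19 in wild type 1 to 4 and 9.76, 9.99 and 9.66 in transgenic 1 to 3, a difference of 0.77 (SE 0.11). The transgenic libraries lay above all wild type libraries, as for 3.38% of all probe sets. With a limma adjusted p = 0.622 the gene did not pass. Wild type 1 and 3, which were high for most cell cycle genes, had the lowest Xbp1 values.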

How the data were processed

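The authors deposited log2 expression values of 35556 probe sets, made with RMA per the submitters' processing notes; its version is not given in the sources used here. RMA normalizes arrays to each other by quantiles, which would remove most of a shift of all genes in 1 genotype; the deposited array medians still differ slightly by genotype. The 21789 probe sets with exactly 1 gene symbol in the platform annotation were tested, and 0 columns were left unused. Members, lists and alternatives were chosen with earlier results of these data known. Transgenic minus wild type was fitted with limma 3.58.1 (lmFit, eBayes, two-sided, genotype only) in R 4.3.3, with Benjamini-Hochberg adjustment over all probe sets. Single genes also had an exact permutation test over 35 splits. Lists are described by counts and medians, with no test. The fit was tested on simulated data.

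Values by library are given for the 4 S phase and 4 mitosis genes with the smallest p, for Mki67, Top2a, Pcna and Mcm2, and for members whose groups do not overlap; of other lists the 2 genes with the smallest p, and of marker lists the first gene of some, are named. Most other genes named outside this rule are marked as such or given by range. Some are not, such as Cdk4 and the single genes of the progenitor and fibroblast, T and B cell and meiotic germ cell lists. Alternatives were a replicate block, another quantile normalization, a common median, leaving out the dimmest 25%, every row, array weights, 1 or the mean probe set per gene, a robust eBayes prior with an intensity trend, leaving out each library, wild type 2 as the only control, and other thresholds. Equal replicate numbers did not pair the samples: the deviations of same-numbered libraries correlated at -0.14, -0.09 and 0.06.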

Additional observations from a re-analysis of the deposited data

Results flagged for a closer look

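Dixon's test of a single far value was applied within the 4 wild type libraries to each of the 36 genes and to both list summaries, 38 values in all, and marked 2; chance marks about 1 in 20. For Tyms, wild type 1 (4.07) lay above the other wild type libraries (3.36 to 3.44), with a gap of 0.887 of the group's range. For Bub1, wild type 2 (2.63) lay below the others (3.74 to 3.92), with a gap of 0.863 of the range.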

How the results depend on the processing

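With limma, 0 probe sets were called in either direction in all 7 libraries; without wild type 2 limma called 7 higher and 84 lower, so leaving out single libraries gave 0 to 7 and 0 to 84. An unadjusted p under 0.05 gave 1050 higher and 679 lower. The median difference ran from -0.35 to -0.13 for S phase genes and from -0.59 to -0.17 for mitosis genes when single libraries were left out. The replicate block gave medians of -0.35 and -0.56 and changed no call of a member. With wild type 2 as the only control the medians were 0.011 and 0.048.

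With wild type 2 as the only control the difference turned positive for Mcm2 (0.021), Mcm3 (0.054), Mcm5 (0.033), Mcm7 (0.0018), Rrm2 (0.29), Cdc6 (0.32), Mki67 (0.014), Bub1 (0.10), Bub1b (0.14), Ccnb2 (0.14), Plk1 (0.12), Aurka (0.27), Aurkb (0.071), Birc5 (0.025), Kif11 (0.11), Kif20a (0.21) and Prc1 (0.089). Averaging its probe sets moved Top2a to -0.50. Shifting arrays to a common median turned Mcm7 to 0.0088, and the replicate block turned Pole to -0.0005. Leaving out single libraries gave ranges across 0 for Mcm7 (-0.063 to 0.014), Cdc6 (-0.18 to 0.094), Pole (-0.015 to 0.10), Mki67 (-0.58 to 0.11), Aurkb (-0.38 to 0.066), Cenpa (-0.41 to 0.017), Nusap1 (-0.23 to 0.080) and Ube2c (-0.029 to 0.26). Apart from fewer samples, the cause was not tested. Of 612 alternative values of members, 582 kept direction and side of the threshold, 29 turned sign, and 1, Bub1 without wild type 2, came to pass.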

Other observations

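Of the genes described, Pcna and Top2a each had another row with that symbol and no other. The other Pcna row (10461391) gave a difference of -0.40 (SE 0.23), close to the -0.41 of the row used. The other Top2a row (10390746) was dim, at 1.73 to 2.10 in all 7 libraries, and differed by -0.059 (SE 0.097).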
